A study of Aedes aegypti with 48 samples.

Results

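The transcripts described here are the 65 genes that were higher in AeCyc-/- mosquitoes (KO) than in the wild type (WT) at every one of the 4 time points sampled. For each gene and library, CPM (counts scaled to a library total of 1000000) were taken as the count divided by the library's sum over genes, times 1000000. A gene was a member when its mean CPM in WT was at least 1 and when, at ZT1, ZT5, ZT9 and ZT13, every KO library lay above every WT library. Members were ordered by the mean over time points of the KO minus WT difference in mean log2(CPM + 0.5), on which all log2 differences below are given. The rule allowed up to 150 members, but only 65 of the 10759 genes past the WT minimum met it, or 0.604%, out of 19804 gene identifiers. The mirrored rule, with every KO library below every WT library at each time, was met by 251 genes, or 2.33%. Since the KO minus WT values chose the members, they are given as a description and carry no test.

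Cycle (Cyc) encodes a basic helix-loop-helix PAS protein that in Drosophila pairs with Clock to switch on E-box genes, among them the period and timeless genes whose products feed back to repress the pair. Transcripts that are higher in a knockout of an activator need not be its direct targets, and in whole bodies they come from every tissue at once. Genotype and mosquito line go together here, so loss of Cyc and other differences between the lines cannot be told apart. Each library came from a pool of 10 whole females (Liverpool strain) taken 5 days after they emerged, in a light-dark cycle. Adult females of the lines were given sheep blood through a membrane feeder and sucrose as part of rearing, and whether the sampled pools had fed on blood before collection was not given in the sources used here. The KO groups came from the Cyc knockout line, reared as the WT was and with an allele not given in the sources used here, at ZT1, ZT5, ZT9 (6 libraries each) and ZT13 (5 of 6 libraries). The WT groups held 6 libraries at each of ZT1, ZT5, ZT9 and ZT13, where ZT is zeitgeber time, the hours since lights on. The paper places ZT13 in the dark, and the rest of the night was not sampled. Statements below about ranges over the day cover the sampled times alone. Gene counts per library ran from 10670669 to 33232780 (median 26210624). Of 3 opsins looked at as markers of the eye, which are not the whole family, AAEL006259 was abundant in every library. It ran from 7895 to 10750 CPM (median 9369) in KO, against 6818 to 11728 CPM (median 8420) in WT. The other two were scarce and had the higher medians in KO: AAEL005621 ran from 0.156 to 17.9 CPM (median 6.18) in KO, against 0.301 to 1.88 CPM (median 0.527) in WT, and AAEL005625 from 0.0588 to 12.2 CPM (median 3.20) in KO, against 0 to 0.651 CPM (median 0.280) in WT. The ranges of all 3 overlapped, and the part of eye transcripts in the members' differences was not tested. Because RNA came from whole bodies, more cells of a type and more RNA per cell cannot be told apart for any member.

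Cyc itself (AAEL002049), the targeted gene, was still counted in every KO library. At ZT1 it lay between 28.6 and 40.7 CPM (median 34.4) in KO, against 65.8 to 77.4 CPM (median 76.1) in WT. At ZT9 the KO libraries held 25.9 to 29.7 CPM (median 27.0) and the WT libraries 29.4 to 33.6 CPM (median 32.9), and the ranges overlapped there and at no other time. The library labelled KO ZT13 replicate 1 carried the same count as WT ZT9 replicate 2 for all 19804 identifiers, and it was left out, as the rule asks. The same counts entered the rule as WT ZT9 replicate 2, which had to lie below every KO ZT9 library. Members were thus chosen to be low in them, and their place in this library is no evidence on its genotype. In the library labelled KO ZT13 replicate 1, all 65 members lay below every other KO ZT13 library, 37 within the WT ZT13 range, 17 below that range and 11 above it. Kept under its label, only those 11 genes would have met the rule: AAEL017514, AAEL004239, AAEL012486, AAEL006251, AAEL014842, AAEL014883, AAEL011910, AAEL012351, AAEL002134, AAEL008219 and AAEL010716.

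The mean difference of the members ran from 0.29 to 1.85 on the log2 scale (median 0.75), which is a fold of 1.23 to 3.61 (median 1.68). It was above 1 in 14 members, between 0.5 and 1 in 36 and below 0.5 in 15. Over all 10759 genes the median of the same difference was -0.11, because with library sums as the scale the bulk of genes sat slightly lower in KO. With TMM scaling, which centres the bulk of genes, that median was 0.02 and the members' differences ran from 0.43 to 1.98 (median 0.88). The members were chosen as higher in KO and this scaling raised their differences, so their sign under TMM is no check. Under TMM 143 genes met the rule and 168 its mirror, so that the higher genes made up 46.0% of both sets together, against 20.6% with library sums. Of the 65 members, 61 still met it under TMM, and AAEL003107, AAEL019914, AAEL008664 and AAEL005221 did not. The map of all members by library shows the separation and the spread within each group.

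**Figure D1:**
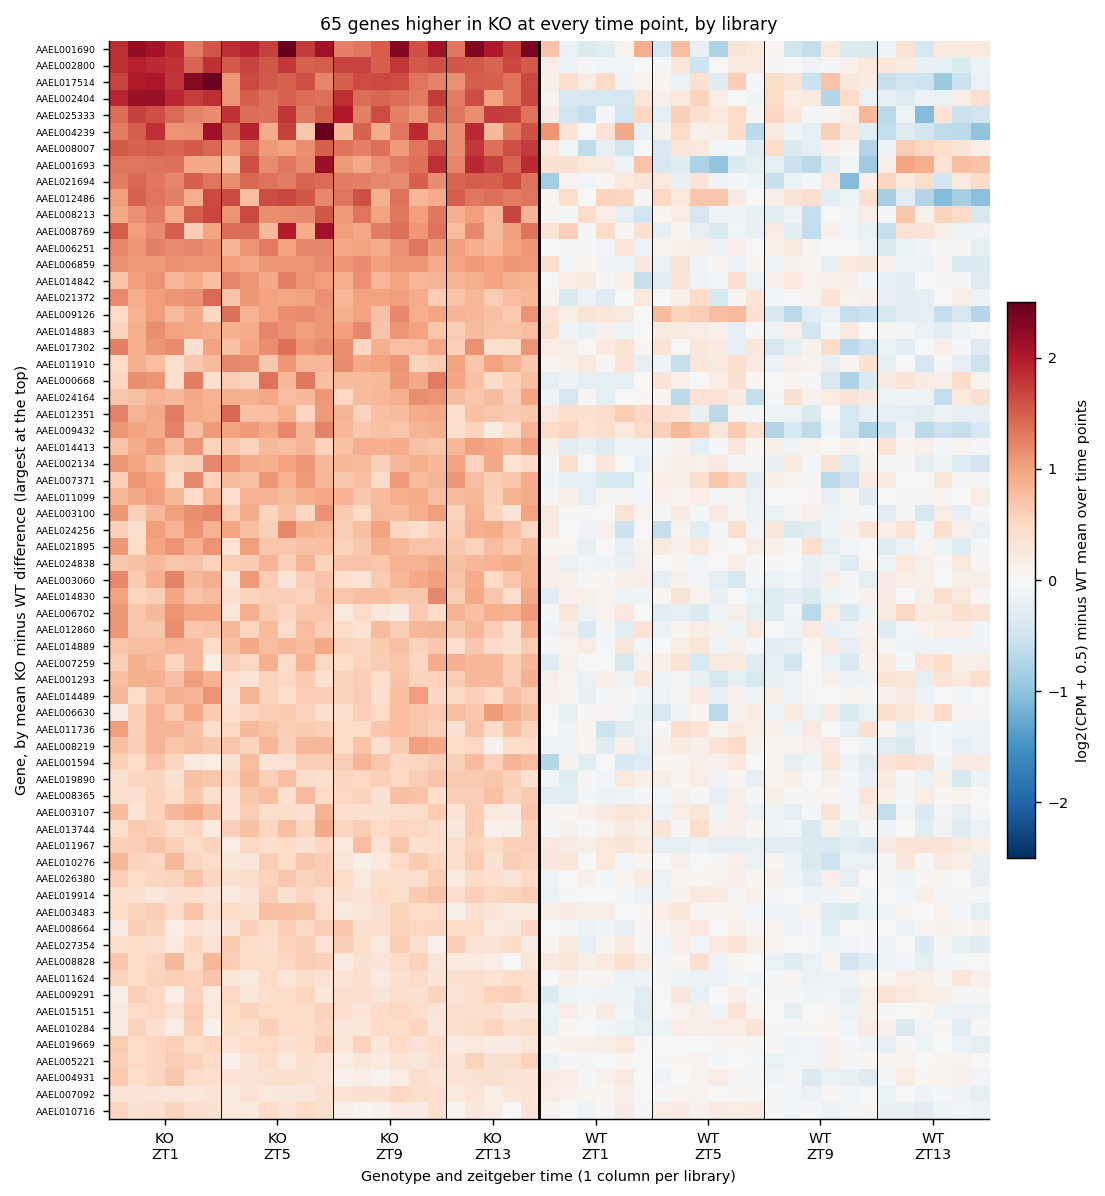
Each row is 1 of the 65 members and each column 1 library, KO libraries to the left of WT libraries and by time within genotype; colour is log2(CPM + 0.5) minus the gene's WT mean over the time points. The KO side is above 0 in nearly all cells, darkest in the top rows where mean differences reach 1.85, and the WT side scatters around 0.

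At single time points the rule's condition was far more common. Among genes past the WT minimum, every KO library lay above every WT library at ZT1 in 509 genes (4.73%), at ZT5 in 395 (3.67%), at ZT9 in 410 (3.81%), and in 629 (5.85%) at ZT13. It held at exactly 1 time point in 706 genes, at 2 in 274, at 3 in 143 and at all 4 in the 65 members. For 28 members the separation went further, with each of the 23 KO libraries above each of the 24 WT libraries over all times. That condition includes the rule's, so these 28 were also all the genes past the WT minimum that met it (0.26%). In the other 37 the ranges over the whole day overlapped although each time point was separated. The members with the thinnest margin were AAEL013744 at ZT1 (110.2 CPM in the lowest KO library, 109.8 CPM in the highest WT library), AAEL004239 at ZT1 and AAEL009291 at ZT5. Just outside lay AAEL007777, missed at ZT5 with 187.0 CPM in the lowest KO library and 187.1 CPM in the highest WT library, AAEL014821, missed at ZT9, and AAEL023022, missed at ZT5. A further 11 genes separated at all times but lay under the WT minimum, the nearest being AAEL020284 with a mean of 3.22 CPM in KO and 0.954 CPM in WT.

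Terms were taken from the study's lists of genes higher in the knockout, so counts of members with a term have no share over all genes. Of the members, 6 were annotated as serine-type peptidases, at ranks 1, 8, 12, 33, 57 and 58 by mean difference. These enzymes cut peptide bonds with an active-site serine; in female mosquitoes the family includes the trypsins and chymotrypsins of the midgut and the proteases of immune cascades, and the annotation used here does not say to which kind a member belongs. AAEL001690, annotated with serine-type endopeptidase activity, had the largest mean difference of all members (1.85, 3.61-fold). It lay in KO between 105 and 198 CPM (median 154) at ZT1, between 140.2 and 249 CPM (median 157) at ZT5, between 102 and 214 CPM (median 125) at ZT9 and at 106, 139.8, 170.5, 215 and 220.1 CPM in the 5 libraries at ZT13. In WT it lay between 33.4 and 79.97 CPM (median 41.3) at ZT1, between 24.2 and 72.8 CPM (median 44.1) at ZT5, between 27.9 and 50.8 CPM (median 33.3) at ZT9 and between 30.9 and 54.7 CPM (median 50.2) at ZT13. No KO library of any time came down to the highest WT library, and the 4 differences were 1.66 (ZT1), 1.99 (ZT5), 1.92 (ZT9) and 1.85 (ZT13).

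AAEL001693, a further gene named as a serine-type endopeptidase in the study's tables, lay in KO between 47.8 and 64.5 CPM (median 62.4) at ZT1, between 41.1 and 109 CPM (median 59) at ZT5, between 47.6 and 89.1 CPM (median 57.2) at ZT9 and at 58, 67.9, 81, 90.6 and 91.3 CPM in the 5 libraries at ZT13. In WT AAEL001693 lay between 22.2 and 40.2 CPM (median 30.7) at ZT1, between 12 and 20.9 CPM (median 18.8) at ZT5, between 13 and 23.3 CPM (median 18.2) at ZT9 and between 27.4 and 49.2 CPM (median 41.1) at ZT13. The WT libraries at ZT5 and ZT9 were low and those at ZT13 high, so that the KO minus WT difference was 0.92 (ZT1), 1.86 (ZT5), 1.72 (ZT9) and 0.98 (ZT13), a fold of 2.59 on average. AAEL008769, with the same annotation, ran between 59.5 and 167 CPM (median 87.4) in KO, against 24.9 to 58 CPM (median 37.1) in WT, and its difference was also largest at ZT5: 0.84 (ZT1), 1.61 (ZT5), 1.32 (ZT9) and 1.02 (ZT13). Without sequences of these genes, whether close copies shared reads could not be checked.

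AAEL003060, annotated with serine-type endopeptidase activity and with the neuroactive ligand-receptor pathway, took more counts than any other gene identifier in the table. Its share of a library's counts ran from 2.06% to 3.96% (median 2.77%) in KO, against 1.28% to 1.94% (median 1.73%) in WT. In CPM it ran between 20645 and 39596 CPM (median 27661) in KO, against 12824 to 19381 CPM (median 17261) in WT, a mean fold of 1.68, and its differences were close at all times (0.84 (ZT1), 0.76 (ZT5), 0.80 (ZT9) and 0.61 (ZT13)). That gene alone made up most of the members' summed share, which was 2.63% to 4.63% (median 3.41%) in KO and 1.69% to 2.30% (median 2.12%) in WT. A share of counts is no level per length, which could not be computed here. The remaining peptidases differed less. AAEL011624, with serine-type endopeptidase activity, ran between 19.98 and 28.4 CPM (median 23.4) in KO, against 15.3 to 21.1 CPM (median 16.8) in WT (1.35-fold). AAEL009291, a serine-type carboxypeptidase, which trims residues from the end of a protein, ran between 129.96 and 174 CPM (median 157) in KO, against 91.3 to 147 CPM (median 114) in WT (1.35-fold).

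Among 3 members with monooxygenase activity and heme binding, the signature of the cytochrome P450 enzymes that oxidise hormones, lipids and insecticides, the levels and patterns were unlike. AAEL014413 ran between 63 and 92.2 CPM (median 75.5) in KO, against 33.9 to 53.9 CPM (median 42.7) in WT, a 1.78-fold mean difference with no overlap over the day. AAEL014830 ran between 86.7 and 148 CPM (median 104) in KO, against 51 to 85.3 CPM (median 66) in WT, also with no overlap (1.65-fold). AAEL009126 was the scarcest and lay in KO between 3.91 and 6.06 CPM (median 5.12) at ZT1, between 5.29 and 7.75 CPM (median 6.44) at ZT5, between 4.75 and 6.76 CPM (median 5.6) at ZT9 and at 4.5, 4.72, 5.06, 5.22 and 6.37 CPM in the 5 libraries at ZT13. In WT AAEL009126 lay between 2.68 and 3.53 CPM (median 3.27) at ZT1, between 3.61 and 5.01 CPM (median 4.63) at ZT5, between 1.49 and 2.36 CPM (median 1.8) at ZT9 and between 1.43 and 2.18 CPM (median 1.88) at ZT13. The WT level was low at ZT9 and ZT13, where the difference was 1.39 and 1.28, compared with 0.55 at ZT1 and 0.47 at ZT5. The plot of peptidases and monooxygenases gives every library of both groups of enzymes.

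**Figure D2:**
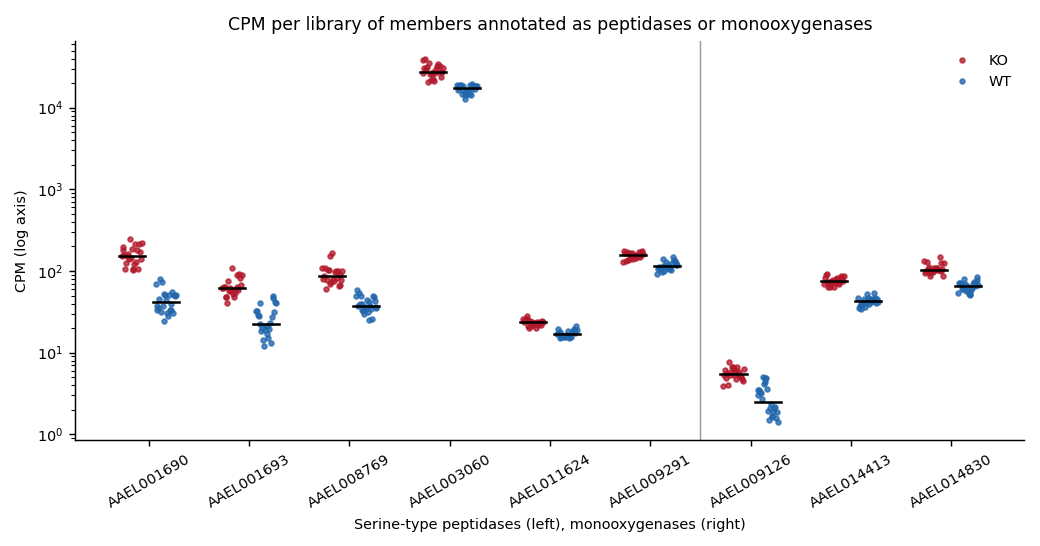
Points are libraries of all times, KO left of WT for each gene, on a log axis in CPM, and bars are medians; 6 serine-type peptidases stand left of the line and 3 monooxygenases right of it. AAEL003060 sits near 27661 CPM in KO and 17261 CPM in WT, far above the rest, and AAEL009126 near 5.43 CPM in KO and 2.52 CPM in WT; WT libraries of AAEL001693 and AAEL009126 spread the most.

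AAEL002800, the catalytic subunit of DNA polymerase epsilon, which synthesises the leading strand in replication and fills gaps in repair, had the next largest difference (1.64, 3.12-fold). In KO it lay between 85.8 and 119.8 CPM (median 112) at ZT1, between 86.8 and 106 CPM (median 90.7) at ZT5, between 87.9 and 106 CPM (median 98.3) at ZT9 and at 85.9, 89.9, 90.8, 92.1 and 99.8 CPM in the 5 libraries at ZT13. In WT it lay between 27.6 and 35.2 CPM (median 30.01) at ZT1, between 21.2 and 38.4 CPM (median 33.8) at ZT5, between 29 and 37.1 CPM (median 30.7) at ZT9 and between 24.2 and 37.5 CPM (median 27.4) at ZT13. The 2 genotypes stayed far apart at each time, with differences of 1.81 (ZT1), 1.55 (ZT5), 1.59 (ZT9) and 1.62 (ZT13). AAEL006859, a putative Myb-interacting protein of a transcription regulator complex, was steadier over the day: it ran between 53.8 and 64.6 CPM (median 60.5) in KO, against 21.3 to 38.1 CPM (median 27.6) in WT, with differences of 1.03 (ZT1), 1.09 (ZT5), 1.01 (ZT9) and 1.17 (ZT13).

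AAEL002404, a receptor protein tyrosine kinase annotated to the MAPK pathway, which carries growth factor signals to the nucleus, lay in KO between 549 and 741 CPM (median 620.1) at ZT1, between 363 and 467 CPM (median 435) at ZT5, between 409 and 599 CPM (median 445) at ZT9 and at 332, 401, 422, 515 and 528 CPM in the 5 libraries at ZT13. In WT AAEL002404 lay between 123 and 205 CPM (median 126) at ZT1, between 153 and 242 CPM (median 183) at ZT5, between 99.4 and 234 CPM (median 191) at ZT9 and between 132 and 218 CPM (median 148) at ZT13. All 6 KO libraries at ZT1 stood above every other KO library except 2 at ZT9, while the WT libraries at ZT1 were mostly low. The difference was largest at ZT1: 2.15 (ZT1), 1.21 (ZT5), 1.44 (ZT9) and 1.44 (ZT13). AAEL006630, annotated with kinase activity and phosphorylation but to no pathway, was scarcer. It ran between 6.57 and 12.2 CPM (median 9.1) in KO, against 3.32 to 8.1 CPM (median 5.76) in WT, with nearly the same difference at each time (0.71 (ZT1), 0.67 (ZT5), 0.66 (ZT9) and 0.58 (ZT13)).

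Several of the largest differences belonged to identifiers for which the sources used here give neither a name nor a term. AAEL017514 lay in KO between 88 and 152 CPM (median 109.8) at ZT1, between 58.1 and 85.3 CPM (median 77.3) at ZT5, between 64.4 and 85.2 CPM (median 80.1) at ZT9 and at 59.6, 70.1, 76.6, 77.9 and 85.1 CPM in the 5 libraries at ZT13. In WT AAEL017514 lay between 24.8 and 37.5 CPM (median 30.3) at ZT1, between 21.8 and 41.5 CPM (median 27) at ZT5, between 18.2 and 44.5 CPM (median 33.6) at ZT9 and between 13.8 and 23.7 CPM (median 18.5) at ZT13. Its KO libraries were highest at ZT1 and its WT libraries lowest at ZT13, and the difference was 1.85 (ZT1), 1.34 (ZT5), 1.25 (ZT9) and 1.97 (ZT13). AAEL012486 had the widest gap among the 4 differences of any member: 1.01 (ZT1), 1.02 (ZT5), 1.01 (ZT9) and 2.17 (ZT13). It lay in KO between 36.6 and 61.7 CPM (median 48.3) at ZT1, between 33.3 and 62.7 CPM (median 59.8) at ZT5, between 34.7 and 59.9 CPM (median 43.7) at ZT9 and at 48.1, 49, 49.7, 51.2 and 56.4 CPM in the 5 libraries at ZT13, and in WT between 19.3 and 28.6 CPM (median 23) at ZT1, between 19.5 and 31.8 CPM (median 25.7) at ZT5, between 15.9 and 26 CPM (median 22.8) at ZT9 and between 8.84 and 15.8 CPM (median 10.7) at ZT13. The KO level was similar at the 4 times and the WT libraries at ZT13 were the low ones.

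AAEL025333 was a scarce transcript at between 6.14 and 11.7 CPM (median 7.55) in KO, against 0.925 to 4.92 CPM (median 2.66) in WT, and its difference was 1.15 at ZT9 and 1.89 at ZT13. AAEL004239 ran between 7.04 and 26.3 CPM (median 11.3) in KO, against 1.85 to 9.68 CPM (median 4.39) in WT, and its KO libraries spread widely, from 7.04 to 26.3 CPM at ZT5 alone. AAEL008007 ran between 36 and 61.2 CPM (median 48.4) in KO, against 10.5 to 27.7 CPM (median 17.7) in WT, without overlap over the day. AAEL021694, a protein annotated to the membranes of late endosomes and lysosomes, the compartments that degrade what a cell takes up, ran between 15.9 and 22.2 CPM (median 18.2) in KO, against 2.95 to 10.1 CPM (median 7.22) in WT (2.57-fold). The plot of CPM per library shows the 8 members with the largest differences.

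**Figure D3:**
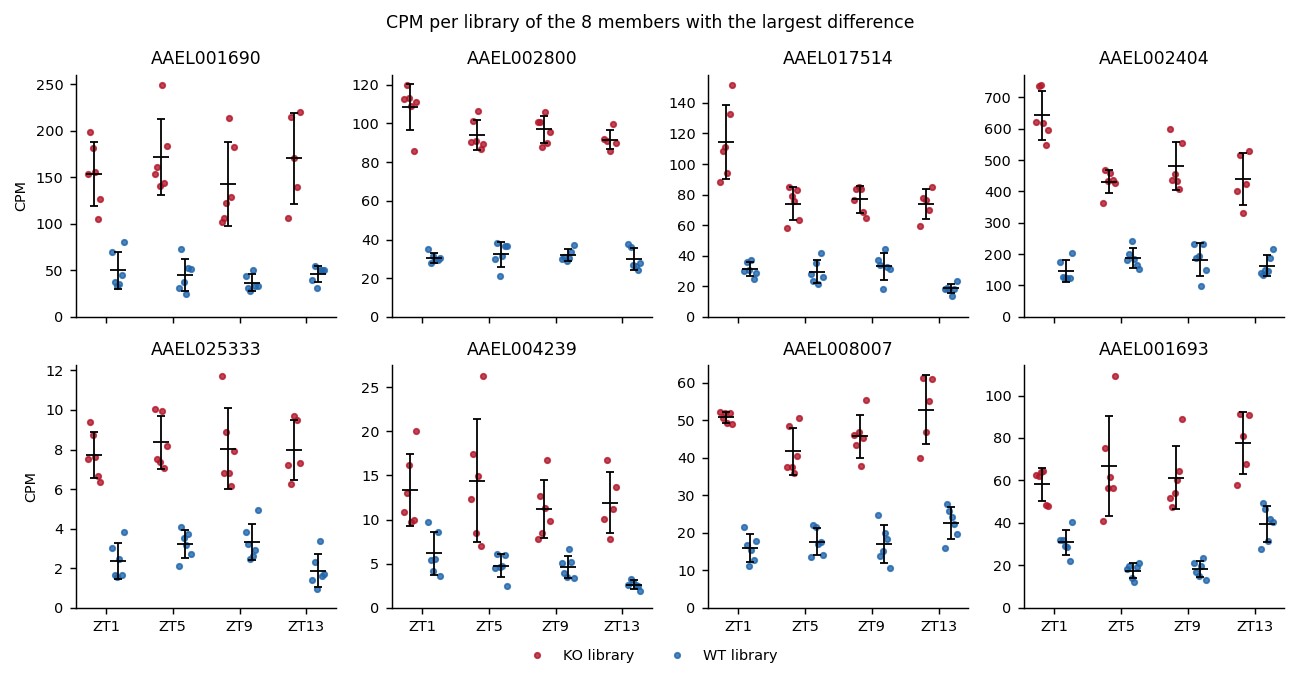
Each panel is 1 of the 8 members with the largest mean difference, with CPM per library (points), mean and SD (bars) at each zeitgeber time, KO left of WT. KO and WT points do not overlap at any time; AAEL002404 has its highest KO libraries at ZT1 (549 to 741 CPM) and AAEL004239 comes closest to touching at ZT1 (9.74 CPM in KO, 9.68 CPM in WT).

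Of the members annotated to glycolysis or to the respiratory chain, AAEL014842 had the largest difference. AAEL014842, annotated to glycolysis and gluconeogenesis and to inositol phosphate metabolism, ran between 19.7 and 29.1 CPM (median 22.9) in KO, against 7.76 to 16.3 CPM (median 11.9) in WT (1.95-fold). AAEL027354, the other member annotated to glycolysis, ran between 4.63 and 6.94 CPM (median 5.89) in KO, against 3.22 to 5.44 CPM (median 4.18) in WT (1.36-fold). AAEL013744, a component of mitochondrial complex I, which takes electrons from NADH, ran between 103 and 182 CPM (median 137) in KO, against 73.8 to 128 CPM (median 94.9) in WT (1.43-fold). AAEL014889, annotated to the respiratory electron transport chain, ran between 89 and 133 CPM (median 110.2) in KO, against 55.3 to 83.4 CPM (median 65.5) in WT (1.6-fold). Only AAEL014842 and AAEL014889 of these 4 kept KO and WT apart over the whole day. AAEL010276, a transaminase of glycine, serine and one-carbon metabolism, ran between 49.7 and 80.8 CPM (median 65.6) in KO, against 31.4 to 55.4 CPM (median 44.7) in WT (1.42-fold). The 4 differences of AAEL010276 lay between 0.45 and 0.61.

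AAEL017302, annotated to insect hormone biosynthesis and the terpenoid backbone pathway, from which juvenile hormone is made, ran between 20.6 and 41.5 CPM (median 31.4) in KO, against 9.65 to 21.5 CPM (median 15.9) in WT (1.88-fold). AAEL008219, a fatty acid elongase, which lengthens very long acyl chains, ran between 6.75 and 13.2 CPM (median 10.2) in KO, against 4.73 to 8.82 CPM (median 6.3) in WT (1.56-fold). AAEL007092, with phospholipase activity, ran between 159.6 and 204 CPM (median 179) in KO, against 120.5 to 161 CPM (median 143) in WT (1.26-fold). Of these 3, AAEL017302 had the largest difference and AAEL007092 the smallest.

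AAEL021372, which carries chitin binding as its only term, ran between 245 and 424 CPM (median 318) in KO, against 121 to 219 CPM (median 159.99) in WT (1.93-fold), without overlap. AAEL010716, annotated to protein export, endoplasmic reticulum processing and the phagosome, closed the list with between 97.1 and 144 CPM (median 121) in KO, against 79.5 to 114 CPM (median 95.6) in WT (1.23-fold). AAEL009432, the other phagosome member, stands with the results on time of day. AAEL004931, a glycosyl hydrolase of the lysosome, ran between 79.4 and 119 CPM (median 96.7) in KO, against 57.8 to 87.8 CPM (median 75.1) in WT (1.29-fold). AAEL006251, annotated to protein modification by small protein conjugation, as in tagging with ubiquitin, ran between 18.7 and 26.7 CPM (median 22.6) in KO, against 8.07 to 12.8 CPM (median 10.3) in WT (2.13-fold).

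The largest counts after AAEL003060 belonged to AAEL019669, for which the sources used here give neither name nor term. It ran between 1594 and 2152 CPM (median 1919.8) in KO, against 1174 to 1645 CPM (median 1404) in WT, and its differences were among the most even, at 0.44 (ZT1), 0.44 (ZT5), 0.44 (ZT9) and 0.35 (ZT13). AAEL005221, also without a name or term in these sources, ran between 210.3 and 301 CPM (median 257) in KO, against 174 to 213 CPM (median 196) in WT (1.32-fold). AAEL005221 did not meet the rule under TMM scaling. AAEL014489, with tRNA binding and activity on tRNA, ran between 12.4 and 21.7 CPM (median 15.2) in KO, against 8.05 to 11.4 CPM (median 9.69) in WT. AAEL008828, a carbonate dehydratase, which interconverts carbon dioxide and bicarbonate, ran between 20.7 and 37 CPM (median 28.3) in KO, against 14.7 to 27.6 CPM (median 20.3) in WT. In the sources used here, 34 of the 65 members had at least 1 term and 4 of these a product name, and 31 had neither. The mean difference of the 31 ran from 0.40 to 1.6 (median 0.76), and that of the 34 from 0.29 to 1.85 (median 0.74).

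The differences were not of equal size over the day in every member. The gap between the highest and the lowest of a member's 4 differences was 0.27 at the median and ran from 0.04 to 1.16. It was below 0.3 in 36 members and above 0.7 in 10. ZT1 was the time of the largest difference in 24 members, ZT9 in 21, ZT13 in 11 and ZT5 in 9. The median difference of the members was highest at ZT1 (0.80), followed by ZT9 (0.77), ZT5 (0.67) and ZT13 (0.64). Over all genes the medians were -0.15, -0.12, -0.08 and -0.09 in the same order. Whether the KO minus WT difference depended on time was not tested, since it is the contrast that chose the members.

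**Figure D4:**
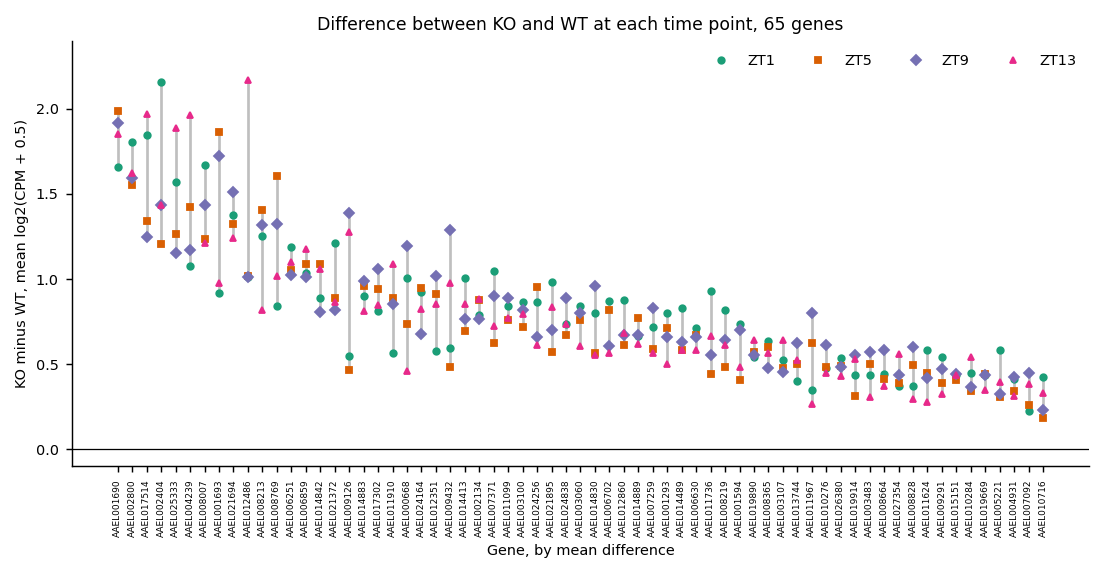
For each of the 65 members, in order of mean difference, symbols give KO minus WT in mean log2(CPM + 0.5) at the 4 time points and the grey line spans them. All symbols lie above 0; the longest line is that of AAEL012486, with 2.17 at ZT13 and 1.01 to 1.02 at the other times.

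Time of day within each genotype is a contrast the rule did not use, although it rests on the same libraries, and it was tested over all genes by the quasi-likelihood F-test of edgeR on counts with Benjamini-Hochberg adjustment. In WT, 1747 of 11982 genes differed between the 4 times (14.6%), and 26 of the 65 members did (40.0%). In KO, 1110 of 11989 genes differed (9.26%), and 12 of the 65 members did (18.5%). Both shares of the members were above those of all genes, but the members were chosen on these libraries and no test compares the shares. The members' median spread within a group was 0.16 in KO and 0.18 in WT (SD of log2(CPM + 0.5)), against 0.18 in KO and 0.14 in WT over all genes past the WT minimum. Of the members, 7 passed in both genotypes, 19 in WT and not in KO, 5 in KO and not in WT, and 34 in neither. The same split was not counted over all genes, so these counts are not read as particular to the members. A member that passed in one genotype alone is not shown to differ between genotypes.

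In WT the 26 members were highest at different times, which was ZT13 in 11 members, ZT1 in 7, ZT5 in 7 and ZT9 in 1. Of all 1747 genes called in WT, 34.8% were highest at ZT13, 29.4% at ZT1, 23.4% at ZT5 and 12.5% at ZT9. In KO all 12 members were highest at ZT1 in the fit, as were 51.1% of the 1110 genes called there. With library sums as the scale, 11 of the 12 were highest at ZT1 and AAEL009432 at ZT5. The difference between the highest and the lowest time was 0.24 to 1.25 on the log2 scale in the 26 WT members (median 0.51), and 0.32 to 0.73 in the 12 KO members (median 0.46). It was above 1 in 5 of the WT members and in 0 of the KO members. Over all genes called, the median difference was 0.41 in WT and 0.41 in KO, with highest values of 5.82 and 4.96. How many of those genes were above 1 was not counted. Under all alternative settings, with libraries left out among them, 4 of the 12 KO calls and 21 of the 26 WT calls always held. The same was not counted over all genes. The KO counts depended on single libraries. Without KO ZT1 replicate 1, 604 genes and 7 members passed, without replicate 4 of that group 634 genes and 6 members, without its replicate 6, 732 genes, and without its replicate 2, 1901 genes. Without KO ZT13 replicate 2, 4 or 5, the KO counts of genes were 714, 713 and 684.

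The lowest adjusted p in WT belonged to AAEL011967, annotated to the perinuclear cytoplasm. In WT it lay between 63.9 and 72.2 CPM (median 68.5) at ZT1, between 49 and 51.8 CPM (median 49.5) at ZT5, between 44.2 and 47.5 CPM (median 46.3) at ZT9 and between 63.2 and 73.6 CPM (median 70.2) at ZT13, with a difference of 0.63 on the log2 scale between the highest and the lowest time, adjusted p = 1.84e-11. All 12 WT libraries at ZT1 and ZT13 stood above all 12 at ZT5 and ZT9. In KO AAEL011967 lay between 79.98 and 93.9 CPM (median 86.9) at ZT1, between 65.1 and 83.4 CPM (median 79.6) at ZT5, between 69.3 and 98.8 CPM (median 77.3) at ZT9 and at 77.7, 79.4, 86.1, 87.2 and 87.6 CPM in the 5 libraries at ZT13, and the time effect did not pass (adjusted p = 0.159). AAEL009432, a plasma membrane protein of the phagosome pathway, in which particles taken up by a cell are enclosed and degraded, passed in both genotypes. It lay in KO between 15.9 and 22.4 CPM (median 19.4) at ZT1, between 17 and 22.6 CPM (median 19.5) at ZT5, between 15.1 and 17.6 CPM (median 16.3) at ZT9 and at 10.8, 12.6, 13, 13.8 and 17 CPM in the 5 libraries at ZT13, with a difference of 0.59 on the log2 scale between the highest and the lowest time, adjusted p = 0.0129. In WT AAEL009432 lay between 11.1 and 13.5 CPM (median 12.9) at ZT1, between 11.4 and 16.7 CPM (median 14.5) at ZT5, between 5.15 and 8.69 CPM (median 6.23) at ZT9 and between 5.7 and 8.27 CPM (median 6.29) at ZT13, with a difference of 1.106 on the log2 scale between the highest and the lowest time, adjusted p = 4.70e-08. The WT libraries at ZT9 and ZT13 all stood below those at ZT1 and ZT5, and in KO the low libraries were those at ZT13.

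The monooxygenase AAEL009126 was likewise low at ZT9 and ZT13 in WT. All its WT libraries at those times lay below all those at ZT1 and ZT5 (difference of 1.25 on the log2 scale between the highest and the lowest time, edgeR adjusted p = 5.50e-08). In KO its means were 4.97 ± 0.847, 6.41 ± 0.843, 5.65 ± 0.674 and 5.18 ± 0.726 CPM in order of time (SD, n = 6, 6, 6 and 5), and time did not pass (edgeR adjusted p = 0.282). The peptidase AAEL001693 was lowest in WT at ZT5 and highest at ZT13, with every WT library at ZT1 and ZT13 above every one at ZT5 (difference of 1.24 on the log2 scale between the highest and the lowest time, adjusted p = 3.39e-06). In KO its means were 58.2 ± 7.87, 66.7 ± 23.6, 61.3 ± 14.9 and 77.7 ± 14.6 CPM in the same order (edgeR adjusted p = 0.511). AAEL012486 had its 6 WT libraries at ZT13 below all the other WT libraries (difference of 1.19 on the log2 scale between the highest and the lowest time, adjusted p = 2.91e-05), and did not pass in KO (adjusted p = 0.557).

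The lowest adjusted p in KO belonged to AAEL017514, whose 6 KO libraries at ZT1 all stood above every later KO library (difference of 0.73 on the log2 scale between the highest and the lowest time, adjusted p = 6.79e-04). In WT it also passed, with its low libraries at ZT13 (difference of 0.79 on the log2 scale between the highest and the lowest time, adjusted p = 0.00909). AAEL001293, for which the sources used here give no name or term, passed in both genotypes. Its means were 33.2 ± 2.65, 25.5 ± 2.13, 27.2 ± 1.79 and 30.7 ± 2.78 CPM over the 4 times in KO (adjusted p = 0.00112), against 18.9 ± 2.33, 15.5 ± 1.71, 17.1 ± 1.45 and 21.7 ± 3.22 CPM in WT (adjusted p = 0.00285). ZT5 was its lowest time in KO and in WT. The kinase AAEL002404 passed in KO (difference of 0.68 on the log2 scale between the highest and the lowest time, adjusted p = 0.00294) and not in WT (adjusted p = 0.439). AAEL006702, also without a name or term in these sources, passed in both. Its difference on the log2 scale between the highest and the lowest time was 0.63 in KO (edgeR adjusted p = 0.00616) and 0.58 in WT (edgeR adjusted p = 0.00177). AAEL002800, the polymerase subunit, passed in KO at a difference of 0.32 on the log2 scale between the highest and the lowest time, adjusted p = 0.0172, and its WT means lay between 29.8 and 32.3 CPM (adjusted p = 0.953). The KO call of AAEL002800 was lost without KO ZT1 replicate 1 (adjusted p = 0.0726), without KO ZT1 replicate 4 (adjusted p = 0.0658) and with KO ZT13 replicate 1 kept under its label (adjusted p = 0.203). With that library kept, the KO calls of AAEL001293 (adjusted p = 0.0565) and AAEL006702 (adjusted p = 0.0551) were also lost.

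**Figure D5:**
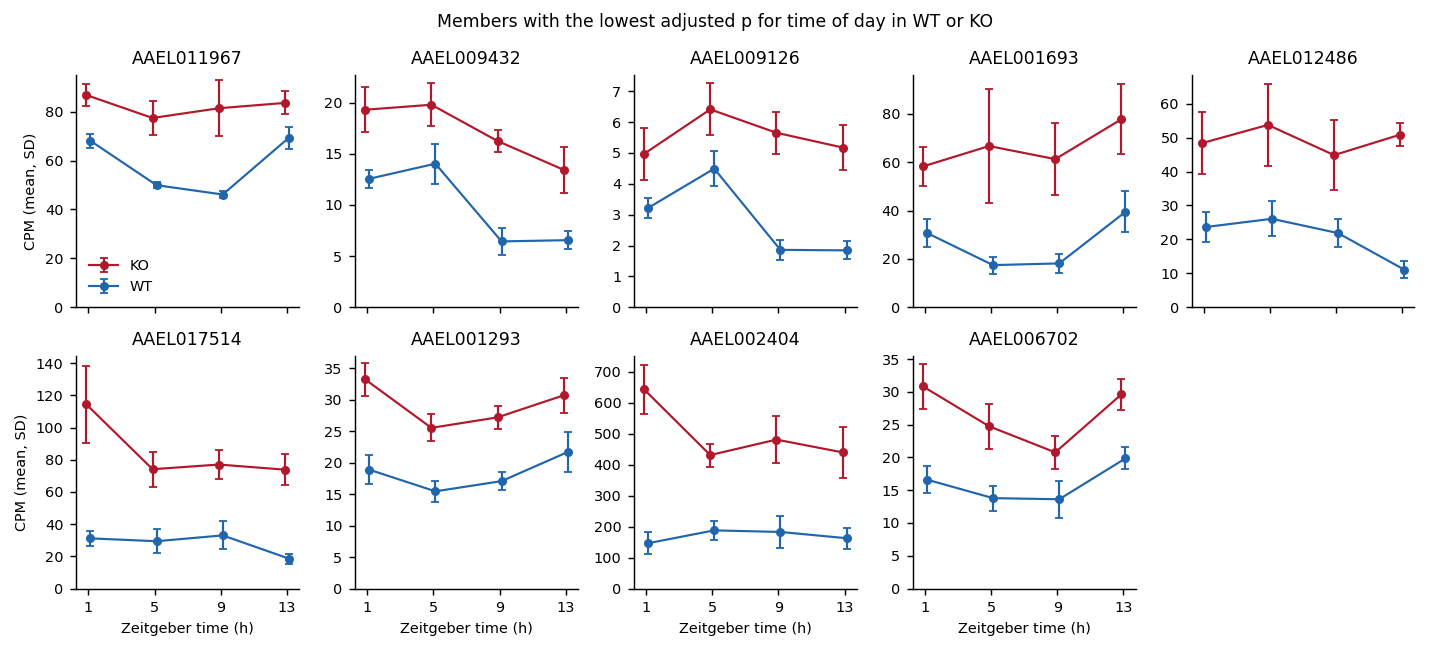
Lines join the mean CPM at each zeitgeber time, with SD as bars (6 libraries, 5 for KO at ZT13), KO and WT, for the 9 members with the lowest adjusted p for time of day in either genotype. WT levels of AAEL009432 and AAEL009126 drop between ZT5 and ZT9, that of AAEL012486 at ZT13, and KO levels of AAEL017514 and AAEL002404 are highest at ZT1.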

How the data were processed

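Reads from 48 poly-A RNA libraries of whole female Aedes aegypti were trimmed by the authors with Trim Galore 0.6.6, aligned with HISAT2 2.2.1 to AaegL5_2 and counted with HTSeq 0.11.3. Deposited were raw counts for each gene, with no normalization; whether HTSeq used strand was not given in the sources used here. The 5 summary lines were left out, and genes held 18.4% to 31.7% of a file's total. At ZT1 this share was 18.4% to 26.5% in KO and 23.6% to 31.7% in WT, and the ranges of KO and WT overlapped at every time. Its part in the values at ZT1 was not tested. The members and lists were chosen with earlier results of these data known.

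Time of day was tested in the 24 WT and the 23 KO libraries by the quasi-likelihood F-test in edgeR 4.0.16 (R 4.3.3) after filterByExpr, with TMM factors and Benjamini-Hochberg adjustment over all genes, at 0.05. Counts were also simulated for the 24 WT libraries (11910 genes), with the same dispersion for every gene and changes at ZT13 only. On these the test recovered 66 of 100 genes changed 1.5-fold and 97 of 100 changed 2-fold, and called 10 others. Real genes differed in spread (SD of log2(CPM + 0.5) from 0.06 to 0.45 in the members in WT). The figures therefore do not give the recovery or the false calls in the real data. KO was compared with WT per time point over the whole table only to check the settings. Alternatives were DESeq2 1.42.0, its size factors, no filter, a replicate block, other pseudocounts and CPM minimums, TMM scaling, and libraries left out. Nothing says that libraries of a group came from separate rearings, so that p-values measure the spread between pools.

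Genes named are the 10 members with the largest difference, the 5 with the most counts, the 5 of lowest adjusted p for time in each genotype, up to 3 per shared term, the 3 with the widest gap among their differences, those the study names, and Cyc; others were chosen after their values were seen. Names and terms are the study's. The terms come from its enrichment lists of genes higher in the knockout, and these lists can be cut short. A member without a term there may be annotated elsewhere, and counts of members per term have no share over all genes. Of 19804 identifiers, 0 matched the reference table used here, so that sequences, coordinates and description-based gene families were not analysed here.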

Additional observations from a re-analysis of the deposited data

Results flagged for a closer look

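Across 240 groups of 5 or 6 libraries, formed by 30 named genes in 8 groups each, 6 (2.5%) held a single library far from the rest. The measure was Dixon's ratio of gap to range. The member rule itself limits low KO and high WT libraries, and the groups share libraries, so the 2.5% is not set against a chance rate. No library appeared among the 6 more than once. AAEL002800 stood at 85.8 CPM in KO ZT1 replicate 5, against 109 to 119.8 CPM in the other libraries of that group. AAEL021694 stood at 20.05 CPM in KO ZT9 replicate 5, against 16 to 17.2 CPM in the others, and AAEL014830 at 148 CPM in KO ZT9 replicate 6, against 103 to 109.6 CPM. AAEL014842 stood at 7.76 CPM in WT ZT1 replicate 6, against 11.9 to 14.2 CPM. AAEL001293 stood at 15.4 CPM in WT ZT13 replicate 3, against 21.9 to 24.7 CPM, and AAEL010716 at 104.5 CPM in WT ZT5 replicate 3, against 110.6 to 113.6 CPM.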

How the results depend on the processing

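The number of genes meeting the rule was 143 with TMM effective library sizes and 11 with KO ZT13 replicate 1 kept under its label. It was 65 with a pseudocount of 0.1 or 2, 73 with a WT minimum of 0.2 CPM, 57 with one of 5 CPM and 66 without WT ZT9 replicate 2. Leaving out each library in turn, an alternative chosen after seeing the data, gave 65 to 77 genes. For time of day in WT, leaving out single libraries gave 1453 to 2245 genes and 22 to 31 members, and for time of day in KO 604 to 1901 genes and 6 to 14 members. DESeq2's likelihood ratio test called 1964 genes for time in KO, 17 of them members, and 2245 genes in WT, 35 of them members. With KO ZT13 replicate 1 kept, 1148 genes were higher and 981 lower in KO at ZT13, compared with 2140 and 1955 without it, and 8 members passed for time in KO. The time difference of AAEL025333 in KO, which passed under no setting, ran from -0.045 to 0.13 as single libraries were left out, turning negative in 5 cases. The cause of these changes was not tested.

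Libraries with the same replicate number did not deviate together at the median, by the correlation of their deviations from the group means. Over the 36 pairs of WT libraries of different times it ran from -0.20 to 0.16 (median -0.02), with 3 above 0.1. Over the 33 KO pairs it ran from -0.26 to 0.30 (median -0.02), with 11 above 0.1. The numbers were not taken as pairs. With a replicate block, 1527 genes and 22 members passed for time in WT, and 1010 genes and 14 members in KO.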
